A study of Rattus norvegicus with 3 samples.

Results

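A set of 35 genes of glycolysis and of the cellular response to low oxygen was followed across the cell classes of the embryonic rat cerebral cortex. The set was defined by gene symbol and holds 16 genes of glycolytic and lactate-forming enzymes, 4 transporters of glucose or lactate, 3 regulators of flux, 3 genes of oxygen sensing through hypoxia-inducible factor (HIF) and 9 other hypoxia response genes. All 35 symbols were found among the 29772 genes of the deposited tables. The cells were freshly prepared from the cerebral cortex of wild-type rats (Rattus norvegicus), dissociated with papain, and sequenced as 3 droplet-based single-cell libraries (10x Genomics Single Cell 3′ chemistry) labelled with embryonic days 14, 16 and 18. The protocols given with the samples also cover culture, tagging of cells with oligonucleotides and a sort of human cells by antibody, and it is not known which of these steps the rat libraries went through. Strain, sex and the number of embryos behind each library are not given in the sources used here. Each label has 1 library, so the label and the library cannot be told apart, no test was possible, and every interval below covers counting error only.

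Glycolysis splits glucose into pyruvate in the cytosol and yields adenosine triphosphate without oxygen; lactate dehydrogenase converts pyruvate to lactate and back, and monocarboxylate transporters carry lactate across the membrane. Where oxygen is plentiful, prolyl hydroxylases of the Egln family mark the HIF-1α protein for destruction, and where oxygen is low the protein accumulates and raises the transcription of many glycolytic genes and of the Egln genes themselves. In the embryonic cortex radial glia are the stem cells along the ventricle, which give rise to intermediate progenitors and through them to excitatory neurons, and this progenitor layer is known for active glycolysis.

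The 3 libraries held 7100, 6707 and 6937 cell barcodes in the order of their labels, with 62740631, 80974234 and 73727823 unique molecular identifiers (UMIs, 1 per captured RNA molecule). After filters on genes and mitochondrial UMIs and after removal of likely doublets, 4286, 4977 and 5431 cells remained, with medians of 11199.5, 12264 and 10477 UMIs per cell. Between 7 and 8 barcodes were shared by each pair of libraries among the kept cells. The labels went against the stage genes. Of the globin UMIs, the embryonic forms took 2.57%, 67.4% and 22.0% in the libraries labelled E14, E16 and E18, and in radial glia Hmga2, a gene of early progenitors, stood at 12.1, 234 and 22.1 CPM (counts of the gene per 1000000 UMIs of the class). No direction in time is therefore drawn from the labels, and each library is called by its label only.

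Cells were grouped into 23 clusters, 20 of which could be named from marker genes. Each name below stands for cells like that type by their markers, such as radial glia-like cells. Radial glia, marked by Pax6, Sox2, Vim, Hes1, Fabp7 and others, numbered 404, 2288 and 1696 cells, and intermediate progenitors, marked by Eomes, Neurog2 and others, 453, 474 and 1102. Newborn excitatory neurons (1122 and 1706) and maturing excitatory neurons (2206 and 581) were found in the libraries labelled E14 and E18, against 2 and 0 cells in the library labelled E16. That library had instead 635 cells in a cluster led by Calb1, Calb2, Ebf1 and Lhx9, genes known from early neurons. The marker list it matched best was that of Cajal-Retzius cells, with too few markers raised (3) for a name. It is called cluster 11. Gad2, a gene of GABAergic neurons, was also among its 10 leading genes, and under other settings the same library had 167 cells matched to the GABAergic lineage (Leiden resolution 2, against 3 here) or 618 matched to Cajal-Retzius cells (looser cell filter, against 139 here). When libraries were clustered separately, 316 cells labelled E16 were matched to newborn excitatory neurons. Different clusters supplied most radial glia of each library: clusters 6 and 7 in those labelled E14 and E18, and clusters 0, 4 and 17 in that labelled E16, with cluster 4 alone holding at least 50 cells of all 3, at 54, 588 and 298. Levels are summed UMIs of a class in a library over all its UMIs, in CPM, so they are shares of a class's RNA and not amounts per cell. A count per gene also depends on how well its 3′ end is captured, so genes are not ranked by level, and a ratio of a pair of genes is only followed across classes and libraries.

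The promoters of members whose levels differ or agree across classes are shown first, since the HIF dimer is known to bind the core letters ACGTG or GCGTG. Each sequence is the 250 bases before the RefSeq transcription start (assembly GRCr8), read 5′ to 3′ on the gene's strand; capitals mark every ACGTG or GCGTG on either strand, so that CACGT and CACGC are the same letters read on the other strand. The windows are Ldha chr1:106507842-106508091 (plus strand), Pgam1 chr1:250672902-250673151 (plus), Slc2a1 chr5:138002272-138002521 (plus), Slc16a1 chr2:194812410-194812659 (plus), Bnip3 chr1:203154963-203155212 (minus), Egln1 chr19:69804682-69804931 (minus) and Egln3 chr6:77411016-77411265 (minus).
Ldha: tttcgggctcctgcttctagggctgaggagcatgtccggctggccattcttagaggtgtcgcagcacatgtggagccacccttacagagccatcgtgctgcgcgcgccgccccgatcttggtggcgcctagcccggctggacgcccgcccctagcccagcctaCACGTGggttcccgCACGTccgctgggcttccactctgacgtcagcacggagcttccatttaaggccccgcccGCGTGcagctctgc
Pgam1: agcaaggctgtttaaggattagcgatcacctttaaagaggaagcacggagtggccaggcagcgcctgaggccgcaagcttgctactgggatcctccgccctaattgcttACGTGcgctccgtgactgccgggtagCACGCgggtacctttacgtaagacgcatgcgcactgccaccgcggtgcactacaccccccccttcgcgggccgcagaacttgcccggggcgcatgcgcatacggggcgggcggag
Slc2a1: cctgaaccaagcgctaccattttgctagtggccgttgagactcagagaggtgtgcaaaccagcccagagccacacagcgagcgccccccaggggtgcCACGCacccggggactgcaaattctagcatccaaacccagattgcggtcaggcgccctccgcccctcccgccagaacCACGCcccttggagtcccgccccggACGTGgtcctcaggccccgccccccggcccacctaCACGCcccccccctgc
Slc16a1: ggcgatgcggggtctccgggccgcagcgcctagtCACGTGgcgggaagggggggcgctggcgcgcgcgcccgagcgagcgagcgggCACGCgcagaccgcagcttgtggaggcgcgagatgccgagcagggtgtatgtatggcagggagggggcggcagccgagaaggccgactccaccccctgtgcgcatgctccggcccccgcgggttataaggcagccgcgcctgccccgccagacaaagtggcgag
Bnip3: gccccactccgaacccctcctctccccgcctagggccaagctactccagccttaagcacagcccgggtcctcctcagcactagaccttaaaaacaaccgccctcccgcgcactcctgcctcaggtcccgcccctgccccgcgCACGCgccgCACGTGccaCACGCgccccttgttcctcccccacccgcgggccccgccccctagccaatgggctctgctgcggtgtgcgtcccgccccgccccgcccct
Egln1: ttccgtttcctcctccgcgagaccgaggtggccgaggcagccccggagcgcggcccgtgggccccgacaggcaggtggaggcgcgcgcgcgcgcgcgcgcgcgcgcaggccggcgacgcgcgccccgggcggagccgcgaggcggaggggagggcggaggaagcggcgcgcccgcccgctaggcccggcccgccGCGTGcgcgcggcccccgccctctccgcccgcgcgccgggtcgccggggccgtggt
Egln3: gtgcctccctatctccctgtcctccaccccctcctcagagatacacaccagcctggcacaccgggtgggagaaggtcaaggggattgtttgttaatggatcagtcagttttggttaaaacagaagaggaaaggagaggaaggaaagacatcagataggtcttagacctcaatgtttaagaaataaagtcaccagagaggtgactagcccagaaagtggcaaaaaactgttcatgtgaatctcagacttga
A window was given for 31 of the 35 members, 4 of which have several. ACGTG was present in 16 of the 31 (51.6%), against 24.7% of the 7961 genes of at least 5 CPM in radial glia and 18.1% of all 27457 genes with a window. GCGTG was present in 51.6% of the members, against 48.6% and 28.4%. The longer CACGTG, which contains ACGTG and is also the E-box of other factors, was present in 19.4% of the members, against 9.13% and 6.18%. Matches were counted on each strand, so a CACGTG, which reads the same on both, counts as 2 matches to ACGTG at 1 place. Ldha had 3 matches to ACGTG and 1 to GCGTG, Slc16a1 2 and 1, Slc2a1 1 and 3, Pgam1 1 and 1, and Bnip3 2 and 2. Egln1 had 1 match to GCGTG, and neither motif occurs in the window of Egln3. A match is a match of letters and not a measured binding site.

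The map of levels by class and library shows each member across the 4 main classes. In the 10 combinations of class and library with at least 50 cells, 25 members reached 5 CPM in all 10. Slc16a1 did so in 9, Egln3 in 5, Pfkfb4 in 4, Slc2a3, Ankrd37 and Ndrg1 in 3, Pfkp in 1, and Aldoa, Hk2 and Slc16a3 in none. Aldoa, the muscle-type aldolase, reached at most 3.28 CPM there and Pfkp, the platelet-type phosphofructokinase, at most 7.19 CPM, and why their counts were so low was not tested. Gapdh, Pgk1, Eno1, Ldha, Tpi1 and Pgam1 have processed pseudogenes in rodents, and how reads that match several copies were counted is not given in the sources used here, so their levels are uncertain to that extent.

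**Figure D1:**
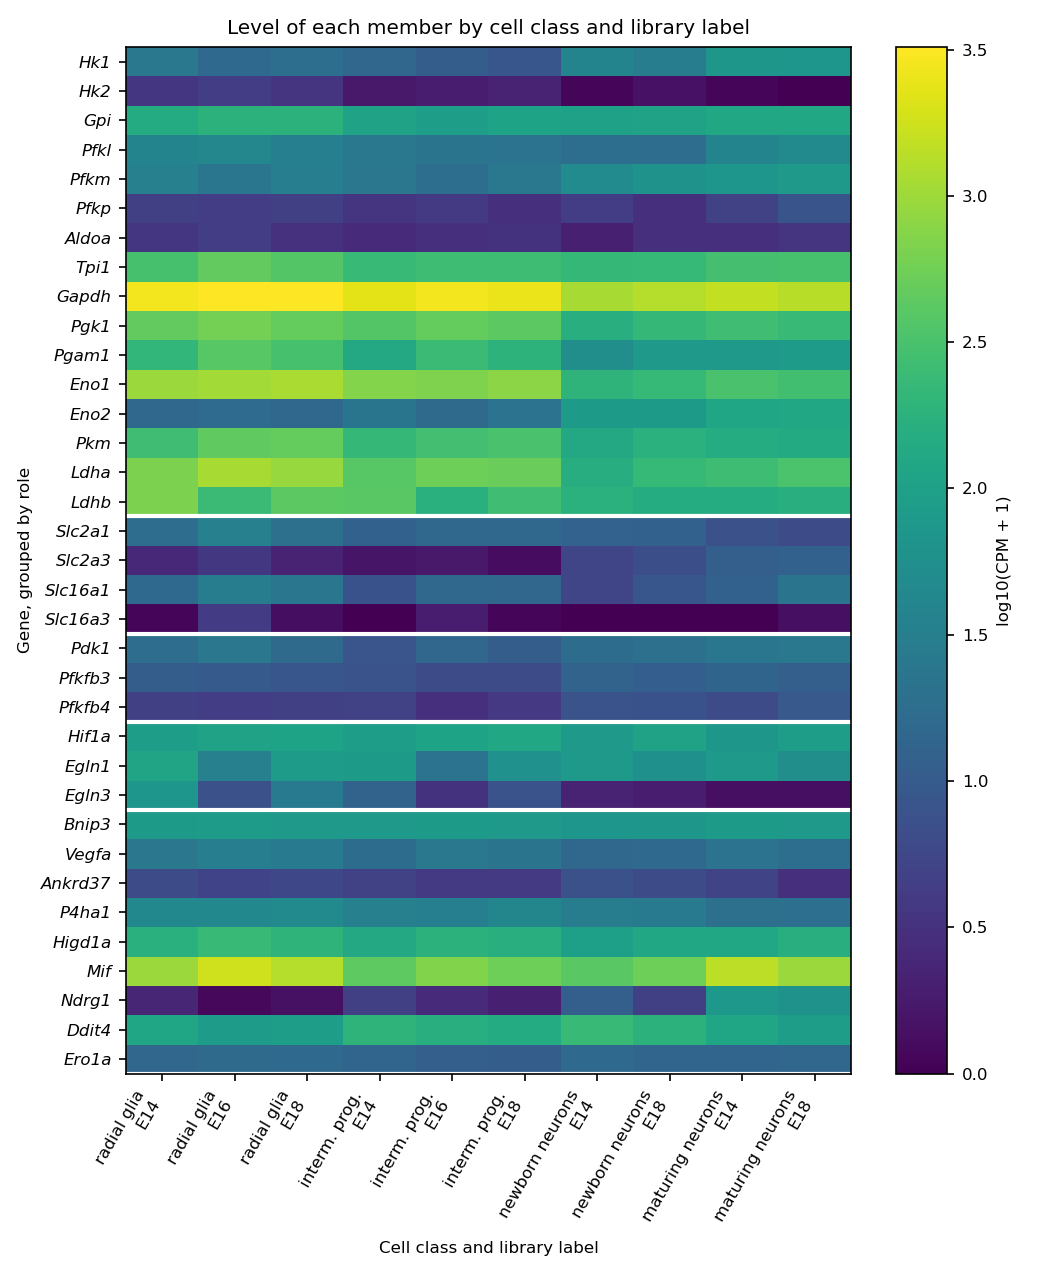
Level of each of the 35 members (rows, grouped by role between white lines) in each cell class and library (columns), as log10 of CPM + 1. Rows are to be read from left to right: Ldha, Eno1 and Pgam1 are brighter in the radial glia columns than in the neuron columns, and Eno2, Hk1 and Ndrg1 are brighter in the maturing neurons.

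Most members had a smaller share of the RNA in intermediate progenitors than in radial glia, though not all by as much as 1.5-fold, and 1 member, Ddit4, had a larger share past that fold. A member was called different when its ratio of CPM + 1 passed 1.5-fold and its mean was at least 5 CPM. A member under 5 CPM in 1 of the groups passes this minimum only through the group where it is high, so its call could go 1 way only. This applies to the higher calls of Pfkfb4, Ndrg1, Slc2a3 and Pfkp in neurons or cluster 11, to the lower calls of Egln3 in neurons and in intermediate progenitors labelled E16, to Slc16a1 and Ndrg1 in newborn neurons, and to Slc16a3 and Pfkfb4 in cluster 8, described further on; these calls are a description and lend the counts no support. In the library labelled E14, 9 of 27 members were lower and 1 was higher, where 18.4% and 9.8% of all genes were. With the label E16, 12 of 26 were lower (all genes 16.5%) and 1 was higher (10.4%), and in that labelled E18 10 of 27 were lower (15.6%) and 1 was higher (8.87%). The median log2 ratio of the members was −0.44, −0.56 and −0.53, beside −0.092, −0.10 and −0.10 over all genes. Pgam1, Ldha, Slc16a1, Pdk1 and Mif were lower in all 3 libraries. The share of the members that were lower was above that of all genes in each library. Counting those of any size, 25, 24 and 23 members had a ratio below 1. The medians over all genes were negative too, so most genes also had a ratio below 1, and that share was not counted. With median-of-ratios scaling the calls were 6 lower and 2 higher in the library labelled E14 (all genes 15.1% and 12.2%), 8 lower and 1 higher in that labelled E16 (13.3% and 13%) and 7 lower and 2 higher in that labelled E18 (12.5% and 11.2%). Under that scaling Pgam1 lost its call in the libraries labelled E14 and E16, and Pdk1 in that labelled E18.

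In newborn neurons most enzyme genes that could be called were lower than in radial glia, while Eno2 was higher in both libraries that hold these cells. Relative to radial glia, 13 of 30 members were lower in the library labelled E14 (all genes 28.7%) and 4 were higher (20.1%). In the library labelled E18, 17 of 29 were lower (26.7%) and 5 were higher (20.7%). The median log2 ratio was −0.51 and −0.72, beside −0.12 and −0.086 over all genes. Of the 13 enzyme genes that passed the minimum in these comparisons, 8 and 10 were lower and 1 and 3 higher, with medians of −1.05 and −1.13. Newborn neurons also held 1713 and 312 CPM of haemoglobin, against 94.3 and 222 CPM in radial glia, and medians of 7227 and 8130.5 UMIs per cell, against 12992 and 12666; the part of free RNA and depth in these ratios was not tested.

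In maturing neurons the members spread in both directions. In the library labelled E14, 10 of 29 were lower than in radial glia (all genes 33.6%) and 6 were higher (20.3%). With the label E18, 12 of 31 were lower (31.8%) and 8 were higher (24.5%). These shares lie near those of all genes, and the median log2 ratios of −0.25 and −0.23 lie near the −0.22 and −0.13 of all genes. With median-of-ratios scaling 9 members labelled E14 were lower and 7 higher, and of all genes 26% were lower and 26.1% higher. In cluster 11 of the library labelled E16, 17 of 28 members were lower than in its radial glia (27.3% of all genes) and 6 were higher (23.4%). The lower ones include Ldha at 233 CPM, Pgam1 at 77.9 CPM and Eno1 at 236 CPM, and the higher ones Eno2 at 81.4 CPM and Hk1 at 33.5 CPM. Cluster 11 had a median of 8427 UMIs per cell, against 14591 in radial glia of that library. It had 6.01% mitochondrial UMIs against 3.56%, and 787 against 531 CPM of haemoglobin. The part of depth and RNA quality in these ratios was not tested.

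**Figure D2:**
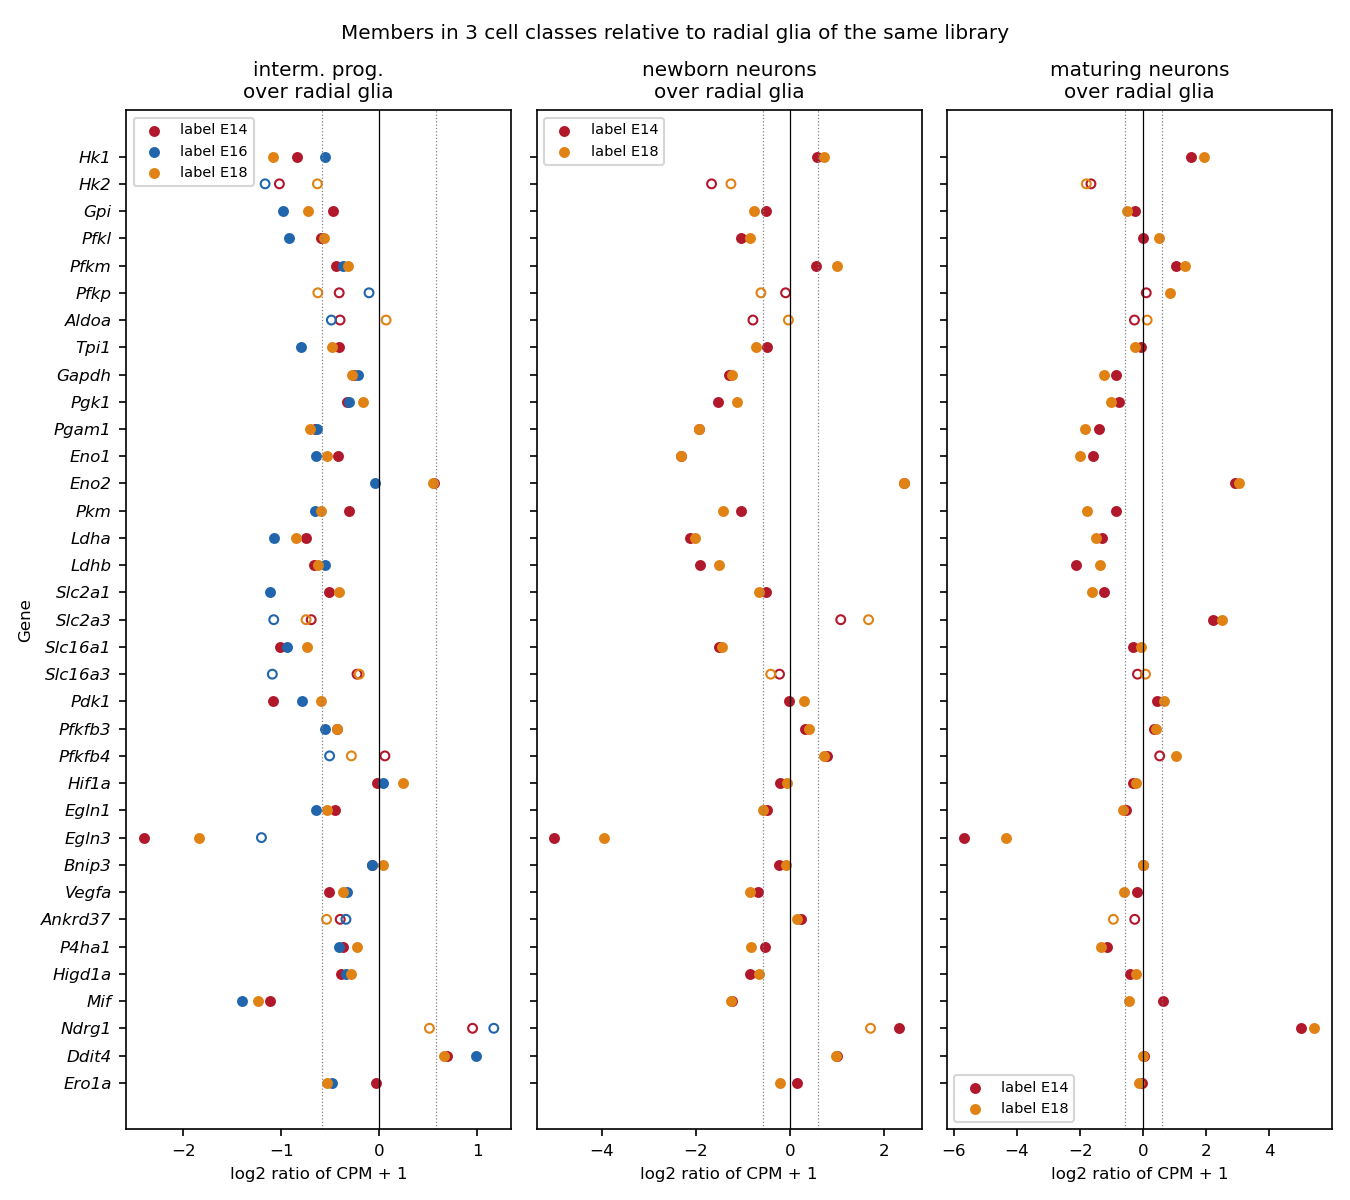
log2 ratio of CPM + 1 of each member in intermediate progenitors, newborn neurons and maturing neurons over radial glia of the same library, with 1 point per library label (filled where the mean was at least 5 CPM, open where it was lower). Dotted lines mark 1.5-fold. In newborn neurons the points of both libraries lie close together for Eno2, Pgam1 and Eno1, whereas Eno2 in intermediate progenitors spans −0.038 to 0.56 and Mif in maturing neurons lies on both sides of 0.

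Among the enzymes of the upper path, the hexokinase that starts glycolysis and the phosphofructokinases that commit sugar to it did not share a direction. Hk1, the main hexokinase of brain, stood at 24.7, 15 and 17.5 CPM in radial glia of the libraries labelled E14, E16 and E18, at 13.4, 9.88 and 7.77 CPM in intermediate progenitors, at 37.1 and 29.3 CPM in newborn neurons of the libraries labelled E14 and E18, and at 72 and 69.7 CPM in maturing neurons. It was 2.92-fold (2.47 to 3.47) and 3.97-fold (3.49 to 4.53) higher in maturing neurons than in radial glia. Hk1 was thus lowest in the intermediate progenitors of each library, and in the libraries labelled E14 and E18 highest in maturing neurons. Pfkl, the liver-type phosphofructokinase, stood at 37.3, 41.4 and 31.7 CPM in radial glia and at 17.6 and 17 CPM in newborn neurons, 2.12-fold and 1.86-fold lower, and at 37.2 and 45.4 CPM in maturing neurons, where neither library passed 1.5-fold. Pfkm, the muscle-type enzyme, went the other way, from 32.5, 23 and 31 CPM in radial glia to 68.2 and 78.5 CPM in maturing neurons. Hk2, the hexokinase known as a HIF target, was found at 2.49 to 3.34 CPM in radial glia and at no more than 0.46 CPM in newborn or maturing neurons, below the minimum for a call in every class.

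Gapdh, Pgk1, Pgam1 and Pkm of the lower path were lower in both neuron classes than in radial glia. Gapdh, glyceraldehyde-3-phosphate dehydrogenase, stood at 2765, 3225 and 3139 CPM in radial glia, 2316, 2781 and 2583 CPM in intermediate progenitors, 1115 and 1329.7 CPM in newborn neurons and 1534 and 1333 CPM in maturing neurons. Pgk1, which makes the first adenosine triphosphate of the path, stood at 463, 597 and 471 CPM in radial glia, 368, 480.2 and 421 CPM in intermediate progenitors, 160.2 and 215 CPM in newborn neurons and 273 and 229.5 CPM in maturing neurons. Both were lowest in newborn neurons of the library labelled E14, and for both no neuron level reached the lowest radial glia level. Pgam1, phosphoglycerate mutase, stood at 207, 389 and 304 CPM in radial glia, 131, 249 and 186 CPM in intermediate progenitors, 53.4 and 78.9 CPM in newborn neurons and 77.4 and 83.9 CPM in maturing neurons. It was 3.88-fold (3.48 to 4.33) and 3.85-fold (3.62 to 4.09) lower in newborn neurons than in radial glia. Pkm, pyruvate kinase, stood at 270.4, 455 and 477 CPM in radial glia, 130.1 and 175 CPM in newborn neurons and 148 and 139 CPM in maturing neurons, lower in both neuron classes of both libraries. Tpi1 and Gpi are the isomerases of the path. Tpi1 ranged from 216 to 458 CPM and Gpi from 90.6 to 182 CPM over the 10 combinations, and both were past 1.5-fold lower than in radial glia in newborn neurons of the library labelled E18 and in intermediate progenitors of that labelled E16, but not in newborn neurons of that labelled E14.

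The enolase genes Eno1 and Eno2 differed between progenitors and neurons in opposite directions. Eno1, the enolase of most tissues, stood at 958, 1050.0 and 1141 CPM in radial glia, 717, 670.3 and 787 CPM in intermediate progenitors, 190.4 and 226 CPM in newborn neurons and 315 and 281 CPM in maturing neurons. Eno2, the neuron-specific enolase, stood at 14.5, 15.9 and 14 CPM in radial glia, 21.8, 15.5 and 21 CPM in intermediate progenitors, 81.8 and 79.5 CPM in newborn neurons and 115 and 122 CPM in maturing neurons. The progenitors' levels of Eno2 all lay below those of both neuron classes, and their levels of Eno1 all lay above. In newborn neurons Eno1 was 5.03-fold (4.76 to 5.32) and 5.04-fold (4.86 to 5.22) lower than in radial glia, while Eno2 was 5.65-fold (4.51 to 7.16) and 5.66-fold (5.01 to 6.4) higher. The number of Eno2 UMIs per Eno1 UMI was 0.0151, 0.0152 and 0.0123 in radial glia, 0.43 and 0.351 in newborn neurons and 0.364 and 0.434 in maturing neurons. In cluster 11 it was 0.345 (0.31 to 0.384). In intermediate progenitors it was 0.0304, 0.0231 and 0.0267.

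Both lactate dehydrogenase genes were lower in neurons than in radial glia, and the libraries differed in the balance between them. In radial glia, Ldha, whose subunit favours the formation of lactate, stood at 659.9 CPM in the library labelled E14 (interval 639 to 681), 1129 CPM in E16 (1118 to 1140.0) and 927 CPM in E18 (914 to 939). Ldhb, whose subunit favours the use of lactate, stood at 645 CPM in E14 (625 to 666), 248 CPM in E16 (243 to 253) and 422 CPM in E18 (413 to 429.9). The library with the most Ldha thus had the least Ldhb, and the library with the least Ldha had the most Ldhb. Ldhb UMIs per Ldha UMI were 0.978 (0.935 to 1.02), 0.22 (0.215 to 0.225) and 0.455 (0.444 to 0.466) in radial glia. Among single radial glia clusters with at least 50 cells they ran from 0.84 (cluster 7) to 1.25 (cluster 6) with the label E14, from 0.213 (cluster 0) to 0.228 (cluster 4) with E16 and from 0.282 (cluster 0) to 0.57 (cluster 6) with E18. The pooled ratio thus depended on the mix of clusters, and the cells labelled E18 in cluster 0, a cluster mostly of the library labelled E16, lay nearest to that library. Cluster 8, an unnamed cluster described further on, gave 0.164 and 0.264 with the labels E16 and E18. Within cluster 4, which all 3 libraries share, the ratios were 0.852, 0.228 and 0.423. In intermediate progenitors they were 1.03, 0.315 and 0.531, the same order of libraries. In newborn neurons they were 1.14 and 0.65 in the libraries labelled E14 and E18, in maturing neurons 0.552 and 0.5, and in cluster 11 0.357. Single clusters spread as widely: 0.395, 0.748 and 0.565 in clusters 2, 10 and 16 of the maturing neurons labelled E14, 0.503 in cluster 13 of those labelled E18, 1.14 in cluster 1 of the newborn neurons labelled E14, and 0.49 and 0.988 in clusters 3 and 9 of those labelled E18. In neurons the difference between libraries thus depended on the clusters pooled. Ldha stood at 151 and 227 CPM in newborn and 265 and 328 CPM in maturing neurons, and Ldhb at 171 and 147 and 146 and 164 CPM.

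The summed share of the 16 enzyme genes followed the same order of classes in every library. In radial glia it was 6537 CPM in E14 (6471 to 6602), 7837 CPM in E16 (7808 to 7865) and 7531 CPM in E18 (7496 to 7566). Gapdh UMIs made up 42.3%, 41.2% and 41.7% of these counts, so the sum leans on that gene. Aldoc, the brain aldolase, is not among the 16, and radial glia held 286, 4.51 and 111 Aldoc UMIs per Aldoa UMI. A sum with Aldoc was not computed, so differences between libraries hold for these 16 genes only. In intermediate progenitors the sum was 4969, 5598 and 5532 CPM. Their clusters 5, 12 and 15 gave 4689, 5712 and 4720 CPM with the label E14, 6376, 5892 and 4484 CPM with E16, and 6398, 5218 and 4218 CPM with E18. The order of libraries thus differed between these clusters. In newborn neurons the sum was 2476 and 2920.4 CPM and in maturing neurons 3471 and 3319 CPM in the libraries labelled E14 and E18, and in cluster 11 it was 2779 CPM. Newborn neurons were thus below maturing neurons in both libraries that hold them. The median cell gave 0.653%, 0.757% and 0.744% of its UMIs to these genes in radial glia, and 0.234% and 0.28% in newborn neurons. The 10th percentile of radial glia cells, at 0.468%, 0.566% and 0.548%, lay above the 90th percentile of newborn neurons, at 0.349% and 0.419% in the libraries labelled E14 and E18. Intermediate progenitors spanned the gap, from 0.329% to 0.843% between the same percentiles in the library labelled E18.

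**Figure D3:**
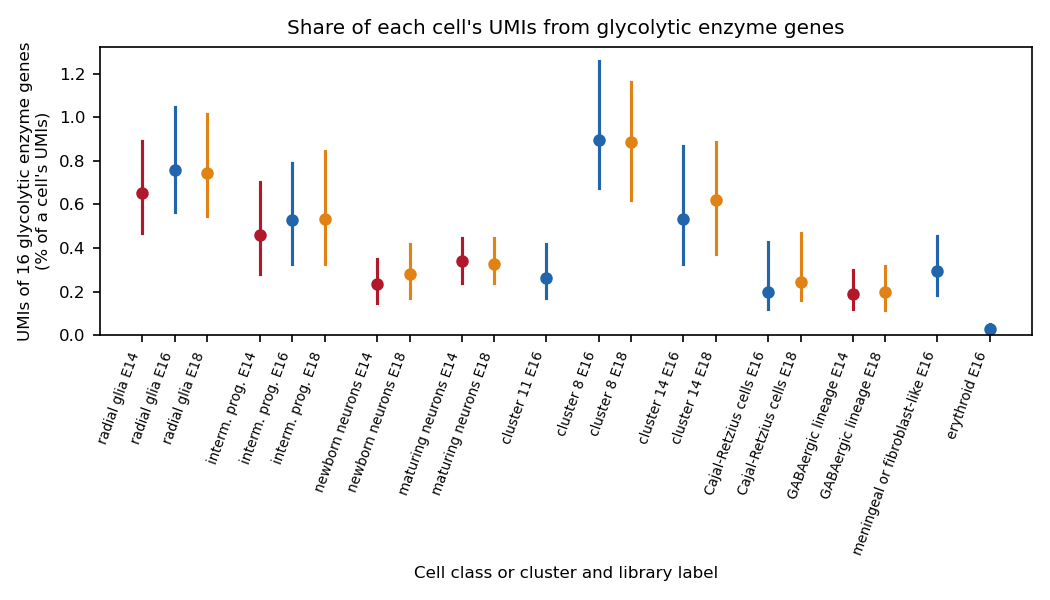
Share of each cell's UMIs that came from the 16 glycolytic enzyme genes, in percent, by cell class or cluster and library label (points, median cell; lines, 10th to 90th percentile of cells, which is a spread of cells and not of replicates). Radial glia and cluster 8 lie highest, intermediate progenitors and cluster 14 (led by Ttr and Otx2) below them, and neurons of all kinds lower; most UMIs of the erythroid-like cells (816107 CPM) are haemoglobin.

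Radial glia of the libraries labelled E14 and E18 fell mainly into clusters 6 and 7. Cluster 6, led by the mitotic genes Prc1, Nusap1 and Top2a, gave 6115 and 6853 CPM to the 16 enzymes, and cluster 7, led by the glial genes Aldoc, Mfge8 and Slc1a3, gave 7061 and 8598 CPM. The enzymes' share was thus 0.706% and 0.86% of UMIs in cluster 7, above the 0.612% and 0.685% of cluster 6 in both libraries. Cluster 6 was also deeper, with medians of 17529.5 and 15454 UMIs per cell against 11476 and 10940.0, and the part of depth and cell cycle in this difference was not tested. In cluster 4, the radial glia cluster present in all libraries, the sum was 6354, 7763 and 7496 CPM, the same order of libraries as over all radial glia.

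The glucose transporters divided by class. Slc2a1 (GLUT1), the transporter of most tissues and of vessels, stood at 16.9 CPM in E14 (13.7 to 20.5), 32.3 CPM in E16 (30.5 to 34.2) and 18.5 CPM in E18 (16.9 to 20.3) for radial glia, at 11.6 and 11.4 CPM in newborn neurons and at 6.51 and 5.33 CPM in maturing neurons. Slc2a3 (GLUT3), the main glucose transporter of neurons, stood at 1.53, 2.69 and 1.21 CPM in radial glia, 0.564, 0.746 and 0.314 CPM in intermediate progenitors, 4.33 and 5.99 CPM in newborn neurons and 10.6 and 11.3 CPM in maturing neurons. Slc2a3 was 6.93-fold (3.61 to 15.3) and 9.39-fold (6.1 to 14.9) higher in maturing neurons than in radial glia, while Slc2a1 was 2.59-fold and 3.48-fold lower. Slc2a3 UMIs per Slc2a1 UMI went from 0.0909, 0.0831 and 0.065 in radial glia to 1.63 and 2.12 in maturing neurons, with 1.04 in cluster 11.

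Of the lactate transporters, Slc16a1 (MCT1) was the one measured well enough to compare. It stood at 14.6, 28.4 and 23 CPM in radial glia, 6.77, 14.4 and 13.4 CPM in intermediate progenitors, 4.45 and 7.76 CPM in newborn neurons and 11.5 and 21.7 CPM in maturing neurons. It was lowest in the library labelled E14 within each of these classes. Slc16a3 (MCT4), the lactate exporter known as a HIF target, had 1, 115 and 8 UMIs in radial glia, or 0.17, 3.12 and 0.333 CPM, and no UMI in newborn neurons of either library.

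The regulators of flux did not share a direction. Pdk1, which shuts pyruvate out of the mitochondrial path and is a HIF target, stood at 16.7, 23.7 and 15.3 CPM in radial glia, 7.34, 13.2 and 9.73 CPM in intermediate progenitors, 16.3 and 19 CPM in newborn neurons and 22.9 and 24.8 CPM in maturing neurons. It was lowest in the intermediate progenitors of each library, 2.27-fold, 1.79-fold and 1.57-fold below radial glia. Pfkfb4, which sets the level of an activator of phosphofructokinase, stood at 3.58, 3.34 and 3.66 CPM in radial glia and 6.9 and 6.64 CPM in newborn neurons, 1.93-fold (1.16 to 3.35) and 1.82-fold (1.35 to 2.45) higher. Among the 4 main classes it reached 5 CPM in neurons alone. Pfkfb3, its relative, ranged from 5.34 to 12.5 CPM and passed 1.5-fold in none of the class comparisons above.

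Of the oxygen-sensing genes, Hif1a differed little and the hydroxylase genes differed widely. Hif1a, which encodes the oxygen-regulated subunit, stood at 90.2, 104 and 108 CPM in radial glia, 88.8, 107 and 127 CPM in intermediate progenitors, 77.8 and 103 CPM in newborn neurons and 72 and 91.9 CPM in maturing neurons, and passed 1.5-fold in no comparison of classes or libraries within these 4 classes. Its protein, which is where oxygen acts, was not measured. Egln3 (PHD3) stood at 69.1 CPM in E14 (62.6 to 76.2), 6.46 CPM in E16 (5.66 to 7.33) and 27.6 CPM in E18 (25.5 to 29.7) for radial glia, at 12.2, 2.24 and 6.98 CPM in intermediate progenitors, at 1.17 and 0.855 CPM in newborn neurons and at 0.379 and 0.4 CPM in maturing neurons. Egln3 was 59.1-fold (31.8 to 124) and 32.2-fold (18.7 to 60.8) lower in newborn neurons than in radial glia, the widest gap between these classes among the members called lower. In maturing neurons of the library labelled E18 it rested on 3 UMIs, a ratio of 69 with an interval of 23.5 to 335. Egln1 (PHD2), the hydroxylase known as the main oxygen sensor, stood at 111 CPM in E14 (102 to 119), 33 CPM in E16 (31.1 to 34.9) and 84.6 CPM in E18 (81 to 88.4) for radial glia and at 80.3, 20.7 and 58.1 CPM in intermediate progenitors. In newborn neurons Egln1 stood at 78.7 and 56.6 CPM and in cluster 11 at 17.4 CPM. Egln1 was thus low throughout the library labelled E16, whereas between the libraries labelled E14 and E18 it differed no more than between classes. Over every class and cluster of at least 50 cells, the highest Egln1 level in the library labelled E16 was 34.4 CPM, in cluster 8, and the lowest in the other libraries was 46.7 CPM, in Cajal-Retzius cells.

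The other hypoxia response genes followed no common course. Bnip3, a mitophagy gene that is a known HIF target, stood at 81, 85 and 76 CPM in radial glia, 77.1, 80.8 and 78 CPM in intermediate progenitors, 68.4 and 71.8 CPM in newborn neurons and 80.1 and 76.3 CPM in maturing neurons, and no comparison of these classes or their libraries passed 1.5-fold. Vegfa, the vessel growth factor, stood at 23.5, 30.4 and 27.8 CPM in radial glia and 14.3 and 15 CPM in newborn neurons, 1.65-fold (1.28 to 2.12) and 1.85-fold (1.59 to 2.16) lower. Higd1a, a mitochondrial protein gene induced by hypoxia, stood at 169.9, 229 and 193 CPM in radial glia and 93.3 and 122 CPM in newborn neurons, 1.82-fold and 1.58-fold lower. These HIF targets thus differ from each other: the level of Bnip3 was about the same in all 4 classes, and those of Vegfa and Higd1a were lower in newborn neurons.

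Ddit4 and Ndrg1 are stress-induced genes that also respond to hypoxia, and each was high outside radial glia. Ddit4 (REDD1), an inhibitor of the growth kinase mTORC1, stood at 118, 82.1 and 91.3 CPM in radial glia, 190.2, 164 and 145 CPM in intermediate progenitors, 235 and 180.2 CPM in newborn neurons and 119.7 and 90.6 CPM in maturing neurons. It was 1.62-fold, 1.99-fold and 1.59-fold higher in intermediate progenitors than in radial glia and 2-fold and 1.97-fold higher in newborn neurons, while maturing neurons lay within 1.5-fold of radial glia. Ndrg1 stood at 1.36, 0.19 and 0.416 CPM in radial glia, 10.6 and 3.62 CPM in newborn neurons and 74.1 and 59.9 CPM in maturing neurons. It was 54.4-fold (27.6 to 126) and 144-fold (77.7 to 303) higher in maturing neurons than in radial glia, yet cluster 11 had 4 UMIs, or 0.705 CPM. High Ndrg1 was therefore seen in maturing neurons and not in cluster 11. The library labelled E16 held no maturing neurons, and Ndrg1 stood at 0.491 CPM over all its cells, so class and library cannot be told apart there.

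Mif, a cytokine gene that is a HIF target, lay above radial glia in maturing neurons of the library labelled E14 and below them in that labelled E18, where it did not pass 1.5-fold. It stood at 949, 1810.0 and 1292 CPM in radial glia, 437, 687 and 548 CPM in intermediate progenitors, 401 and 539 CPM in newborn neurons and 1451 and 941 CPM in maturing neurons. In maturing neurons of the library labelled E14 it was 1.53-fold (1.49 to 1.57) higher than in radial glia, and in that labelled E18 1.37-fold (1.34 to 1.41) lower. The difference of these ratios was not tested. P4ha1, a collagen hydroxylase gene, ranged from 18 to 46.6 CPM and was lower in maturing neurons of both libraries. Ankrd37 and Ero1a ranged from 2 to 6.32 CPM and from 9.96 to 15.2 CPM, and Ero1a did not pass 1.5-fold between classes. Ankrd37 was under the minimum for a call in intermediate progenitors and maturing neurons over radial glia, with a log2 ratio of −0.95 in maturing neurons labelled E18, and did not pass 1.5-fold in newborn neurons.

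Between libraries fewer members differed than between newborn neurons and radial glia. In radial glia, 6 of 27 members were higher with the label E16 than with E14 (all genes 7.25%) and 4 were lower (18%). Between the libraries labelled E18 and E14, 2 of 28 were higher (4.54%) and 2 were lower (9.64%), and between those labelled E18 and E16, 3 of 27 were higher (5.6%) and 2 were lower (2.35%). The median log2 ratios were 0.20, 0.14 and −0.13, beside −0.10, −0.056 and 0.064 over all genes. These 3 comparisons share libraries and are not independent of each other. The share called higher lay well above that of all genes in the first of them, and the other shares rest on 2 to 4 members each. With median-of-ratios scaling, or with totals that leave out mitochondrial, ribosomal and haemoglobin UMIs, the calls between the libraries labelled E18 and E14 were 3 higher (all genes 5.73% and 5.97%) and 1 lower (7.94% and 9.02%).

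The 6 members with higher levels in radial glia labelled E16 than in those labelled E14 were Pgam1, Pkm, Ldha, Slc2a1, Slc16a1 and Mif, from 1.68-fold for Pkm to 1.94-fold for Slc16a1. Mif was 1.91-fold (1.86 to 1.96) higher and Ldha 1.71-fold (1.66 to 1.77). The 4 that were lower were Hk1, by 1.65-fold (1.36 to 1.98), Ldhb by 2.6-fold (2.51 to 2.7), Egln1 by 3.35-fold (3.04 to 3.69) and Egln3 by 10.7-fold (9.1 to 12.6). Under another scaling Hk1 fell just short of 1.5-fold, at a log2 ratio of −0.580. The library labelled E18 lay between the others for Pgam1, Ldha, Slc2a1, Slc16a1, Mif, Hk1, Ldhb, Egln1 and Egln3, and above both for Pkm. In cluster 4 alone, chosen after the data were seen because it has cells of every library, Ldhb was 2.21-fold (1.97 to 2.47), Egln1 4.17-fold (3.21 to 5.38) and Egln3 9.29-fold (6.1 to 14.1) lower in cells labelled E16 than in those labelled E14, and Ldha 1.7-fold (1.54 to 1.88) and Pgam1 2.01-fold (1.67 to 2.44) higher. In that cluster 11 of 28 members were higher (11.7% of all genes) and 5 lower (24%). For E18 over E14 the cluster had 4 higher (9.97%) and 3 lower (17.1%), and for E18 over E16 4 higher (8.62%) and 4 lower (4.44%). Radial glia of the 3 libraries also differed in mitochondrial UMIs (5.29%, 3.56% and 4.37%), ribosomal protein UMIs (17.1%, 23% and 20.7%) and haemoglobin (94.3, 531 and 222 CPM), and their part in the differences was not tested.

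**Figure D4:**
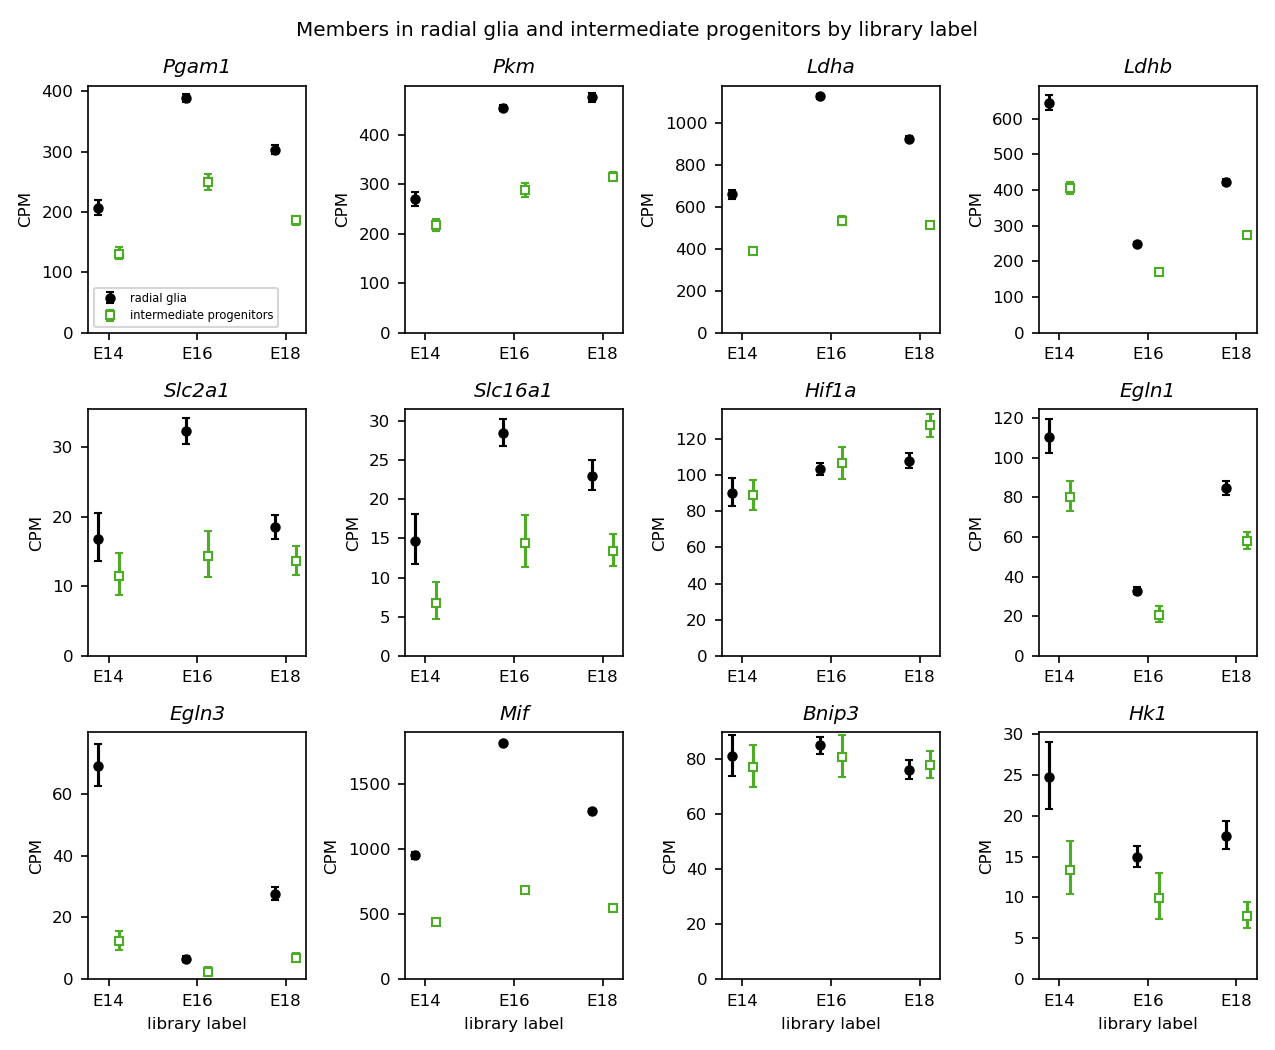
CPM of 12 members in radial glia (filled circles) and intermediate progenitors (open squares) by library label, with 95% Poisson intervals for counting error. Pgam1, Ldha, Slc2a1 and Mif are highest and Ldhb, Egln1 and Egln3 lowest in the library labelled E16 in radial glia, while Bnip3 and Hif1a lie close together; each panel has its own scale, from 0.

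Cluster 8 held 746 cells of the library labelled E16, 51 of that labelled E18 and 1 of that labelled E14, and was led by the replication genes Ung, Cdc6, Dtl and Mcm3 and by Wnt8b and Hmga2. Radial glia was the class whose markers it carried most. It stayed unnamed because its 10 leading genes held 1 marker of another class and none of radial glia. Relative to radial glia of the library labelled E16, 9 of 29 members were higher (2.38% of all genes) and none was lower (4.31%), with a median log2 ratio of 0.45 beside −0.023 over all genes. Bnip3 stood at 181 CPM against 85 CPM, 2.13-fold (2 to 2.25) higher, although it differed little among the 4 named classes. Pdk1 stood at 41.7 against 23.7 CPM, Vegfa at 48.7 against 30.4 CPM, Slc2a1 at 50.3 against 32.3 CPM and Egln3 at 11.1 against 6.46 CPM. The other members past 1.5-fold were Pfkl, Eno2, Pfkfb3 and Slc16a3, and 20 members were within 1.5-fold. Slc16a3, at 3.12 CPM in radial glia, passed the minimum through cluster 8 alone and could only be called higher. In the library labelled E18, where the cluster had 51 cells, 3 of 28 members were higher (11.1%) and 1 was lower (14%), so the higher share was near that of all genes and the lower share, of a single member, was below it. Pfkfb4, 1 of the higher ones, was under 5 CPM in radial glia. There Bnip3 stood at 92.7 CPM (71.5 to 118) against 76 CPM in radial glia and Slc2a1 at 17.1 CPM (8.84 to 29.9) against 18.5 CPM, so neither was past 1.5-fold. Pdk1 stood at 22.8 against 15.3 CPM, Vegfa at 28.5 against 27.8 CPM and Egln3, the 1 member called lower, at 11.4 against 27.6 CPM. The enzyme sum of the cluster was 9425 and 8317 CPM in those libraries, against 7837 and 7531 CPM in radial glia. Its cells had medians of 11392 and 13250.0 UMIs and 3.8% and 4.76% mitochondrial UMIs, and the part of cell cycle and library in these differences was not tested. The cluster was singled out after its values were seen.

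Intermediate progenitors repeated part of this pattern. Their clusters 5, 12 and 15 held 265, 95 and 93 cells labelled E14, 132, 196 and 146 labelled E16, and 533, 340 and 229 labelled E18. In the library labelled E16 relative to that labelled E14, 4 of 27 members were higher (8.79% of all genes), namely Pgam1, Slc16a1, Pdk1 and Mif, and 3 were lower (18.5%), namely Ldhb, Egln1 and Egln3. Egln1 was 3.88-fold (3.14 to 4.83) and Ldhb 2.4-fold (2.22 to 2.6) lower. Between the libraries labelled E18 and E14, 1 of 27 was higher (4.46%), which was Slc16a1, and 2 were lower (8.62%), which were Hk1 and Egln3. Between those labelled E18 and E16, 2 of 26 were higher (7.23%), Ldhb and Egln1, and none was lower (3.99%). With median-of-ratios scaling the calls between the libraries labelled E18 and E14 were 2 higher (5.55% of all genes) and 2 lower (7.41%). Within cluster 5 alone, chosen after the data were seen, 11 of 27 members were higher with the label E16 than with E14 (13.2% of all genes) and 3 lower (23.3%). With the label E18 against E14, 5 of 27 were higher there (6.89%) and 2 lower (12.2%). Clusters 12 and 15 differed from cluster 5 in the enzyme sum. With the labels E14, E16 and E18 it was 5712, 5892 and 5218 CPM in cluster 12 and 4720, 4484 and 4218 CPM in cluster 15. In cluster 5 it was 4689, 6376 and 6398 CPM. Member counts that moved within clusters 12 and 15 are listed further on. Over all intermediate progenitors the median log2 ratios of the members were 0.065, 0.16 and −0.059, beside −0.096, −0.048 and 0.056 over all genes. Each of the members' medians took the other sign under at least 1 other way of processing.

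With the clustering used here, the named neuron classes had enough cells for a comparison in the libraries labelled E18 and E14, and few members differed between them. In newborn neurons 2 of 30 were higher in the library labelled E18 (4.88% of all genes), Ldha and Slc16a1, and 1 was lower (6.27%), Ndrg1, by 2.94-fold (2.08 to 4.19). In maturing neurons 2 of 30 were higher (7.6%), Pfkp, which was under 5 CPM in the library labelled E14, and Slc16a1, and 1 was lower (5.56%), Mif. The call of Mif was lost with cells weighted equally, where 5.87% of all genes were lower. The member medians were 0.067 and 0.063, beside −0.011 and 0.04 over all genes, and that of newborn neurons was negative, down to −0.09, when doublets were kept or the cells were clustered in other ways. That of maturing neurons was negative with other cell filters, down to −0.17. The 2 calls of newborn neurons were not stable. No member was higher with cells weighted equally (4.53% of all genes), with doublets kept or removed at 2 times the rate, at Leiden resolution 2, or with members among the variable genes. With totals that leave out mitochondrial, ribosomal and haemoglobin UMIs 1 was higher (5.03%), and with the looser cell filter more were higher than reported. The share of all genes is not given for the other settings. As reported, Slc16a1 was the 1 member higher in both neuron classes, by 1.75-fold (1.2 to 2.59) and 1.89-fold (1.56 to 2.28). In both neuron classes different clusters hold the cells of each library, cluster 1 and clusters 3 and 9 for newborn neurons and clusters 2, 10 and 16 and cluster 13 for maturing neurons, so library and cluster cannot be told apart there.

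Genes of the neighbouring paths were counted by the same rule between newborn neurons and radial glia in the libraries labelled E14 and E18. Over all genes, 28.7% and 26.7% were lower and 20.1% and 20.7% higher. Of the pentose phosphate path, 3 and 3 of 7 genes were lower and none higher. Of 27 genes that carry pyruvate into mitochondria and through the citric acid cycle, 7 and 6 were lower and 1 and 2 higher, with medians of −0.22 and −0.15, nearer to all genes than the enzymes' −1.05 and −1.13. Of 22 other HIF pathway genes and targets, 5 and 5 were lower, near the share of all genes, and 8 and 7 were higher, above that share. Aldoc, the brain aldolase, stood at 729.8, 14.8 and 236 CPM in radial glia and at 128 and 86.1 CPM in newborn neurons. Aldoa was under the minimum for a call in these classes, so the ranges of both genes are not compared. All 8 proliferation genes were lower in newborn neurons of both libraries. Of the genes known to respond to dissociation, 4 of 5 were higher in newborn neurons of the library labelled E14 and 2 of 7 in that labelled E18, the second near the 20.7% of all genes, and their part in the higher Ddit4 there was not tested.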

How the data were processed

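The deposited tables hold UMI counts per gene and cell barcode, made by the authors with Cell Ranger 6.0.1 on mRatBN7.2, per the submitters' processing notes. Cells with at least 1000 genes and at most 10% mitochondrial UMIs were kept, doublets were scored by simulation (0.8% per 1000 barcodes), and cells were clustered with Scanpy 1.11.5 (2000 variable genes without the members and the gene lists, 30 components, 15 neighbours, Leiden resolution 1, leidenalg 0.10.2). A cluster was named from fixed markers when at least 3, and 50% of the list, were raised, and that share was settled after the clusters were seen. UMIs were summed per class and library into CPM. Intervals are exact Poisson for CPM and Clopper-Pearson for ratios (95%, SciPy 1.17.1). A ratio of CPM + 1 past 1.5-fold, with a mean of at least 5 CPM, was called. Members with values in every library are those called between labels in radial glia or newborn neurons, or between newborn neurons and radial glia in both libraries; others are given by range, and where 1 is singled out it was chosen after its values were seen. The members and lists were chosen with earlier results of these data known. Cell filters, doublet rate, clustering, scaling, pseudocount, minimum and fold were varied. The scripts were tested on simulated data.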

Additional observations from a re-analysis of the deposited data

How the results depend on the processing

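Each label has 1 library and cells are not replicates, so no result has a replicate error, no library could be left out, and calls past a fold carry counting error only. No paired analysis was possible because each label has 1 library. Labels, dissections and library preparation cannot be told apart, and levels are shares of RNA, so a fall in one gene's share can come with a rise in another's. Depth limits Hk2, Aldoa, Slc16a3, Ndrg1 in progenitors and Egln3 in neurons, which rest on few UMIs. No count, median or enzyme sum was computed on fewer than 50 cells of a class: the stricter cell filter left 3 radial glia labelled E16 and 10 newborn neurons labelled E14 in those classes, and resolution 0.5 left 15 newborn neurons labelled E18. The enzyme sum under median-of-ratios scaling was not run. That scaling set the median log2 ratio of all genes near 0 and so shifted it by up to 0.22, in maturing neurons over radial glia of the library labelled E14. No member called in a comparison changed sign under the scaling alternatives.

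The values that moved are grouped here by setting, with the value as reported in brackets. Glia stands for radial glia, progenitors for intermediate progenitors, newborn and maturing for the neurons, E16/E14 for E16 over E14, and progenitors/glia E14 for the ratio of classes within that library. The single clusters, and cluster 8 joined to radial glia, were chosen after seeing the data, and joining cluster 8 gave none of the moves. A higher fold, minimum or pseudocount calls fewer members by construction, and the cause of the other moves was not tested. Where no share of all genes is given for a setting, its counts show only how the calls depend on the processing. That share can move as well: for E16/E14, 13.2% of all genes were higher and 23.3% lower within cluster 5, against 8.79% and 18.5% in all progenitors. All remaining values lay within 1.5 times the reported count or within the 95% order-statistic interval of a median over members or the Poisson interval of a sum, and they kept their direction except the small medians between libraries in intermediate progenitors, newborn neurons and maturing neurons, which took either sign.

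At 2-fold, members called higher were 0 for glia E16/E14 (6), glia E18/E14 (2), progenitors E16/E14 (4), progenitors E18/E14 (1) and newborn E18/E14 (2). At 2-fold, members called higher were 0 for maturing E18/E14 (2), progenitors/glia E14 (1), progenitors/glia E16 (1) and progenitors/glia E18 (1) and 1 for progenitors E18/E16 (2) and newborn/glia E18 (5). At 2-fold, members called higher were 2 for newborn/glia E14 (4). At 2-fold, members called lower were 0 for glia E18/E16 (2), progenitors E18/E14 (2) and maturing E18/E14 (1), 1 for glia E18/E14 (2) and 3 for progenitors/glia E16 (12) and progenitors/glia E18 (10). At 2-fold, members called lower were 4 for progenitors/glia E14 (9) and 10 for newborn/glia E18 (17). Within cluster 4, members called higher were 4 for glia E18/E14 (2) and 11 for glia E16/E14 (6). Within cluster 4, members called lower were 4 for glia E18/E16 (2). With a pseudocount of 10 CPM, members called higher were 0 for progenitors E18/E14 (1), newborn E18/E14 (2) and maturing E18/E14 (2), 1 for glia E18/E14 (2), 2 for progenitors E16/E14 (4) and 3 for newborn/glia E18 (5). With a pseudocount of 10 CPM, members called higher were 5 for maturing/glia E18 (8). With a pseudocount of 10 CPM, members called lower were 0 for glia E18/E16 (2) and progenitors E18/E14 (2). At a minimum of 20 CPM, members called higher were 0 for progenitors E18/E14 (1) and maturing E18/E14 (2), 1 for glia E18/E14 (2) and newborn E18/E14 (2) and 2 for progenitors E16/E14 (4) and newborn/glia E14 (4). At a minimum of 20 CPM, members called higher were 5 for maturing/glia E18 (8). At a minimum of 20 CPM, members called lower were 0 for progenitors E18/E14 (2) and newborn E18/E14 (1), 1 for glia E18/E16 (2) and 6 for progenitors/glia E18 (10). With cells weighted equally, members called higher were 0 for newborn E18/E14 (2), 1 for glia E18/E14 (2) and 2 for progenitors E18/E14 (1). With cells weighted equally, members called lower were 0 for maturing E18/E14 (1) and 1 for glia E18/E16 (2) and progenitors E18/E14 (2). With cells weighted equally, the enzyme sum in CPM was 4793 for progenitors E14 (4969), 5484 for progenitors E16 (5598), 5631 for progenitors E18 (5532), 3416 for maturing E14 (3471) and 2891 for newborn E18 (2920.4). With cells weighted equally, the enzyme sum in CPM was 6666 for glia E14 (6537) and 7658 for glia E18 (7531). With doublets removed at 2 times the rate, members called higher were 0 for newborn E18/E14 (2), 1 for glia E18/E14 (2) and 2 for progenitors/glia E14 (1) and progenitors/glia E18 (1). With doublets removed at 2 times the rate, members called lower were 6 for progenitors E16/E14 (3). In that comparison 18.5% of all genes were lower as reported, and their share under this setting is not given. With doublets removed at 2 times the rate, the enzyme sum in CPM was 4751 for progenitors E14 (4969), 5513 for progenitors E16 (5598), 5069 for progenitors E18 (5532), 3506 for maturing E14 (3471) and 2683 for newborn E14 (2476). With doublets removed at 2 times the rate, the enzyme sum in CPM was 2853 for newborn E18 (2920.4), 8198 for glia E16 (7837) and 7569 for glia E18 (7531). With totals without mitochondrial, ribosomal and haemoglobin UMIs, members called higher were 1 for newborn E18/E14 (2) and 2 for progenitors/glia E14 (1). With totals without mitochondrial, ribosomal and haemoglobin UMIs, members called lower were 1 for glia E18/E14 (2). With totals without mitochondrial, ribosomal and haemoglobin UMIs, the enzyme sum in CPM was 6656 for progenitors E14 (4969), 7519 for progenitors E16 (5598), 7443 for progenitors E18 (5532), 4451 for maturing E14 (3471) and 4176 for maturing E18 (3319). With totals without mitochondrial, ribosomal and haemoglobin UMIs, the enzyme sum in CPM was 3268 for newborn E14 (2476), 3797 for newborn E18 (2920.4), 8425 for glia E14 (6537), 10672 for glia E16 (7837) and 10052 for glia E18 (7531). With median-of-ratios scaling, members called higher were 2 for progenitors E18/E14 (1), progenitors/glia E14 (1) and progenitors/glia E18 (1). With median-of-ratios scaling, members called lower were 1 for glia E18/E14 (2). With the looser cell filter, members called higher were 2 for progenitors E16/E14 (4) and 4 for newborn E18/E14 (2). With the looser cell filter, members called lower were 0 for newborn E18/E14 (1), 1 for glia E18/E14 (2), 3 for maturing E18/E14 (1) and 5 for progenitors E16/E14 (3). With the looser cell filter, the enzyme sum in CPM was 5413 for progenitors E16 (5598), 5436 for progenitors E18 (5532), 3443 for maturing E14 (3471), 3277 for maturing E18 (3319) and 3068 for newborn E18 (2920.4). With the looser cell filter, the enzyme sum in CPM was 8152 for glia E16 (7837). At Leiden resolution 2, members called higher were 0 for progenitors E18/E14 (1) and newborn E18/E14 (2), 2 for progenitors/glia E14 (1) and progenitors/glia E18 (1) and 4 for progenitors E18/E16 (2). At Leiden resolution 2, members called lower were 1 for glia E18/E14 (2) and progenitors E18/E16 (0). At Leiden resolution 2, the enzyme sum in CPM was 5136 for progenitors E14 (4969), 5797 for progenitors E16 (5598), 5186 for progenitors E18 (5532), 2801 for newborn E14 (2476) and 2830.3 for newborn E18 (2920.4). At Leiden resolution 2, the median was −0.053 for newborn E18/E14 (0.067). With no minimum, members called higher were 2 for progenitors/glia E14 (1) and progenitors/glia E16 (1). With no minimum, members called lower were 1 for progenitors E18/E16 (0), 2 for maturing E18/E14 (1), 4 for glia E18/E16 (2) and 5 for progenitors E16/E14 (3). With members among the variable genes, members called higher were 0 for newborn E18/E14 (2), 1 for maturing E18/E14 (2) and 2 for progenitors/glia E14 (1) and progenitors/glia E18 (1). With members among the variable genes, members called lower were 2 for newborn E18/E14 (1) and maturing E18/E14 (1). With members among the variable genes, the enzyme sum in CPM was 5769 for progenitors E16 (5598), 5201 for progenitors E18 (5532), 3527 for maturing E14 (3471), 2758 for newborn E14 (2476) and 2746 for newborn E18 (2920.4). With members among the variable genes, the enzyme sum in CPM was 8166 for glia E16 (7837). With members among the variable genes, the median was −0.30 for glia E18/E16 (−0.13) and −0.094 for newborn E18/E14 (0.067). Within cluster 5, members called higher were 4 for progenitors E18/E16 (2), 5 for progenitors E18/E14 (1) and 11 for progenitors E16/E14 (4). Within cluster 5, members called lower were 2 for progenitors E18/E16 (0). With the stricter cell filter, members called higher were 0 for progenitors E18/E14 (1) and progenitors/glia E14 (1) and 1 for maturing E18/E14 (2). With the stricter cell filter, members called lower were 3 for progenitors E18/E16 (0) and maturing E18/E14 (1). With the stricter cell filter, the enzyme sum in CPM was 6174 for progenitors E14 (4969), 6378 for progenitors E16 (5598), 5701 for progenitors E18 (5532), 3675 for maturing E14 (3471) and 3495 for maturing E18 (3319). With the stricter cell filter, the enzyme sum in CPM was 3249 for newborn E18 (2920.4) and 6657 for glia E14 (6537). With the stricter cell filter, the median was −0.27 for progenitors/glia E14 (−0.44). Within cluster 15, members called higher were 2 for progenitors E18/E14 (1). Within cluster 15, members called lower were 0 for progenitors E18/E14 (2) and 3 for progenitors E18/E16 (0). Within cluster 12, members called higher were 1 for progenitors E18/E16 (2). Within cluster 12, members called lower were 2 for progenitors E18/E16 (0) and 5 for progenitors E18/E14 (2). At Leiden resolution 0.5, members called higher were 0 for maturing E18/E14 (2) and 2 for progenitors/glia E14 (1) and progenitors/glia E18 (1). At Leiden resolution 0.5, members called lower were 2 for maturing E18/E14 (1) and 3 for progenitors E18/E16 (0). At Leiden resolution 0.5, the enzyme sum in CPM was 4791 for progenitors E14 (4969), 4428 for progenitors E18 (5532), 3429 for maturing E14 (3471), 3073 for maturing E18 (3319) and 2429 for newborn E14 (2476). At Leiden resolution 0.5, the enzyme sum in CPM was 8178 for glia E16 (7837) and 7578 for glia E18 (7531). With doublets kept, members called higher were 0 for newborn E18/E14 (2) and 1 for maturing E18/E14 (2). With doublets kept, the enzyme sum in CPM was 5726 for progenitors E16 (5598), 2689 for newborn E14 (2476) and 7483 for glia E18 (7531). With doublets kept, the median was −0.063 for newborn E18/E14 (0.067). With libraries clustered on their own, members called higher were 1 for newborn E18/E14 (2) and maturing E18/E14 (2) and 2 for progenitors/glia E14 (1) and progenitors/glia E18 (1). With libraries clustered on their own, members called lower were 2 for maturing E18/E14 (1) and 5 for newborn E18/E14 (1). With libraries clustered on their own, the enzyme sum in CPM was 5838 for progenitors E16 (5598), 5575 for progenitors E18 (5532), 3519.6 for maturing E14 (3471), 2989.5 for newborn E14 (2476) and 2842 for newborn E18 (2920.4). With libraries clustered on their own, the median was −0.079 for newborn E18/E14 (0.067). With a pseudocount of 0.1 CPM, members called higher were 2 for progenitors/glia E14 (1).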

Other observations

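Outside the excitatory lineage, Slc16a3, the lactate exporter, was measured above its level in radial glia in cluster 14. The cluster was matched to the cortical hem by its markers, but it was led by Ttr, with Otx2 and Calml4, genes known from choroid plexus, and when libraries were clustered separately 89 cells labelled E18 were matched to choroid plexus and 0 to the hem, against 38 and 113 of those labelled E16. At Leiden resolution 2, 36 and 53 cells labelled E18, and 55 and 400 labelled E16, were matched to choroid plexus and hem, so the cluster is called by number. Slc16a3 stood there at 6.44 CPM (4.6 to 8.77) and 20.8 CPM (15.2 to 27.9) in the libraries labelled E16 and E18, against 3.12 and 0.333 CPM in radial glia, and the share of each cell type in these values was not tested. This gene was chosen after its values were seen. The 16 enzymes summed to 5738 and 6443 CPM in cluster 14, 2492 and 2868 CPM in Cajal-Retzius-like cells of the same libraries, and 1938 and 2105 CPM in GABAergic-like cells of the libraries labelled E14 and E18.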
